A study of Caenorhabditis elegans with 66 samples.

Results

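The locus 21ur-10492 is a single listed piRNA of Caenorhabditis elegans, 1 of 17114 in the deposited count table, and it was chosen because its reads are kept in animals without prg-1. Its count was taken from the table in the 54 libraries that have a column there, while 12 set C samples, all mutants, were not used here, and each mutant was set against the wild-type libraries that share its set and age. Whole worms were sampled at 72 h, as gravid adults, and at 48 h, as L4 larvae. Set B holds prg-1(-), snpc-1.2(-); snpc-1.3(-) (the mutant of both genes), mut-16(-), hrde-1(-) and wild type (N2). Set A holds snpc-1.2(-), snpc-1.3(-) and wild type, and of a further set, called set C here, wild type was used. Each of the 18 groups had 3 libraries, 54 in all. The labels name no allele, and nothing in them says whether the 3 replicates of a group came from separate cultures, so p-values measure the spread between these samples, which may be technical.

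piRNAs of this nematode, the 21ur RNAs, are short germline RNAs that are bound and kept stable by the Argonaute PRG-1. PRG-1 with its piRNA recognises transcripts and recruits the making of secondary siRNAs, which are antisense to the target and typically begin with G. MUT-16 is the scaffold protein of the foci where such siRNAs are amplified, and HRDE-1 is a nuclear germline Argonaute that binds them. Both snpc genes encode relatives of SNAPC1, a subunit of a transcription factor complex. The RNA was treated with a 5' polyphosphatase before the libraries were made, per the labels' protocols, a step that lets RNAs with a triphosphate end enter a library as well as piRNAs.

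The sequence of 21ur-10492 is shown beside those of 2 other loci inside the same gene, because their first bases differ. The capital marks the first base, and all are written 5' to 3' as the deposited table gives them, with T for U.
21ur-10492: Gagtttttctcgtcgatcgaa
novel_21ur-0390: Tttcttcgtctaagatcgcct
21ur-10687: Tgacagtcttatcgattttgg

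The locus, WBGene00168059, is 21 bases long and lies at II:13247294-13247314 on the minus strand (WBcel235). It sits wholly within exon 6 of the protein-coding gene F15D4.5, antisense to it, at positions 1177 to 1197 of a coding sequence of 1473 bases. Of 11460 annotated loci with a sequence, 81 begin with G (0.707%), 21ur-10492 among them, and 97.4% begin with T. No other listed sequence of its length was within 2 differences of it (0 loci), and the closest differed at 7 bases. Whether the counting used strand is not given in the sources used here, so reads of F15D4.5 and reads antisense to it cannot be told apart.

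The table lists piRNA loci alone, so a library's total here is its sum of piRNA counts, and its sequencing depth is unknown. These totals averaged 8834 ± 2483 in prg-1 at 72 h, against 810500 ± 147000 in wild type of set B (mean ± SD of 3 libraries each). At 48 h they averaged 6754 ± 3124 in prg-1, against 867500 ± 69810 in wild type. Values in CPM, the counts scaled so that each library sums to 1000000, therefore carry a change of the other piRNAs into the value of a single locus. One library stood apart: wild type replicate 3 of set C at 72 h had a total of 9912, where the other wild-type totals at that age ran from 318641 to 977482. In whole worms, fewer germ cells and less RNA per cell cannot be told apart, and markers of cell types were not measured in these tables.

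In animals without prg-1, 21ur-10492 kept its reads while the rest of the piRNA counts were nearly gone. At 72 h its raw counts were 1034, 1709 and 2011 in the prg-1 libraries, against 488, 541 and 436 in wild type of set B. At 48 h they were 643, 227 and 798 in prg-1, against 527, 458 and 587 in wild type. The groups were apart at 72 h, with every prg-1 library higher, and overlapped at 48 h. The mean count was 324.5% of wild type at 72 h and 106.1% at 48 h, whereas the counts of all other loci together were 0.895% of wild type at 72 h and 0.715% at 48 h.

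A single locus thereby took a large share of what was counted as piRNA. It held 17.05%, 17.85% and 18.51% of all piRNA counts in the 3 prg-1 libraries at 72 h, with exact 95% Clopper-Pearson bounds from 16.11% at the lowest to 19.25% at the highest. In wild type of set B at 72 h it held between 0.05535% and 0.06968%, and in wild type replicate 3 of set C, the library with the low total, 5.276%. At 48 h the shares were 7.83%, 7.17% and 8.98% in prg-1, against 0.05616% to 0.06784% in wild type of set B. Over the wild-type libraries of all 3 sets at 48 h the share ran from 0.04056% to 0.2277%. These bounds cover counting error alone. It had the highest mean count of all listed loci over the prg-1 libraries (rank 1).

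The log2 fold change of 21ur-10492 in prg-1 over wild type, from edgeR with trimmed-mean (TMM) scaling, was 6.64 (SE 0.72) at 72 h and 5.66 (SE 0.689) at 48 h. With every library given the same size, so that raw counts are compared as they stand, it was 1.70 at 72 h and 0.09 at 48 h. No test is given, because the locus was chosen on this contrast. Among 8512 tested loci, 25% were called in either direction at 72 h and 28.4% at 48 h, at an adjusted p below 0.05, and nothing is read from these shares.

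**Figure D1:**
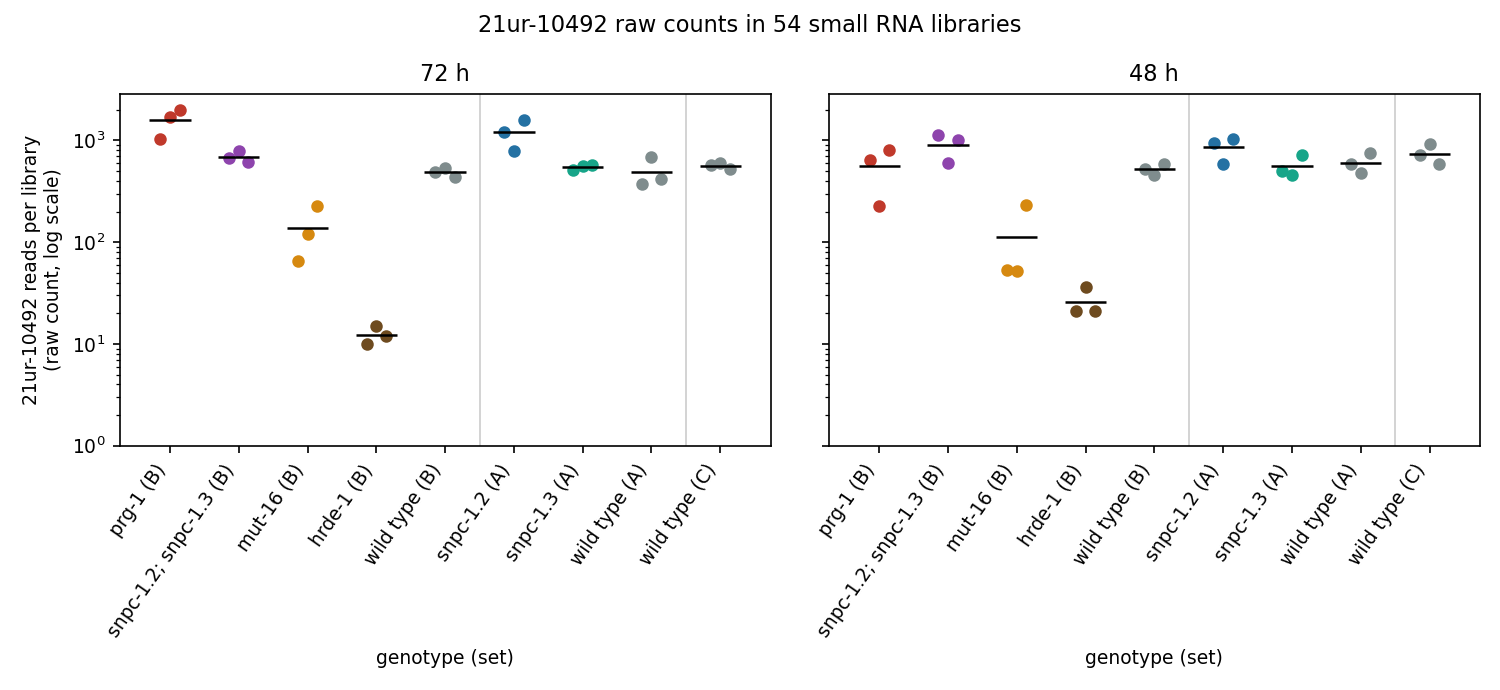
Raw counts of 21ur-10492 (log axis) in each of 54 libraries, by genotype and set, at 72 h (left) and 48 h (right); points are libraries and black lines are group means of 3. The hrde-1 libraries lie between 10 and 36 counts and the mut-16 libraries between 52 and 232, below all wild-type libraries, while the prg-1 libraries at 72 h lie between 1034 and 2011.

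Loss of hrde-1, the nuclear Argonaute, was followed by the lowest counts of 21ur-10492 among the 54 libraries. At 72 h the counts were 10, 15 and 12 in hrde-1, against 488, 541 and 436 in wild type. At 48 h they were 21, 36 and 21 in hrde-1, against 527, 458 and 587 in wild type. All hrde-1 libraries lay far below all wild-type libraries at both ages, and the mean was 2.53% of wild type at 72 h and 4.96% at 48 h.

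The sum of the other piRNA counts overlapped between the groups. In hrde-1 it was 103.7% of wild type at 72 h and 101.5% at 48 h. The log2 fold change of 21ur-10492 was -5.37 (SE 0.743, edgeR adjusted p = 1.76e-05) at 72 h and -4.30 (SE 0.685, adjusted p = 0.000116) at 48 h. Loci called lower made up 1.05% of those tested at 72 h and 0.587% at 48 h. Ordered from the lowest fold change, 21ur-10492 was number 24 of 8512 at 72 h and number 33 at 48 h.

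In mut-16, which lacks the scaffold of siRNA amplification, 21ur-10492 fell as well, with a wide spread. Its counts at 72 h were 66, 120 and 229 in mut-16, against 488, 541 and 436 in wild type. At 48 h they were 53, 52 and 232 in mut-16, against 527, 458 and 587 in wild type. No mut-16 library reached the lowest wild-type library, although replicate 3 was well above the other two at each age. The mean was 28.3% of wild type at 72 h and 21.4% at 48 h.

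The sum of the other piRNA counts was higher in mut-16, at 236.6% of wild type at 72 h and 137% at 48 h. The log2 fold change of 21ur-10492 was -2.70 (SE 0.612, edgeR adjusted p = 0.00145) at 72 h and -2.52 (SE 0.61, adjusted p = 0.00655) at 48 h. At 72 h 6.81% of tested loci were called lower, and at 48 h 3.77% were. Without mut-16 replicate 3 the values were -3.63 at 72 h and -3.76 at 48 h, both called. With equal library sizes the call at 72 h was not kept (log2 fold change -1.82, adjusted p = 0.0547). At 48 h the call was lost when the sum of the counts was the scaling (-2.59, adjusted p = 0.052), without mut-16 replicate 1 (-2.11, adjusted p = 0.104) and without mut-16 replicate 2 (-2.21, adjusted p = 0.075).

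The hrde-1, mut-16, prg-1 and double-mutant comparisons of set B share their wild-type libraries, so their values stand side by side and are not independent. Between ages the hrde-1 effect on 21ur-10492 differed by -1.07 on the log2 scale (72 h minus 48 h, SE 0.955, edgeR adjusted p = 1). For mut-16 the difference was -0.17 (SE 0.822, adjusted p = 1). Neither age difference passed the test.

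**Figure D2:**
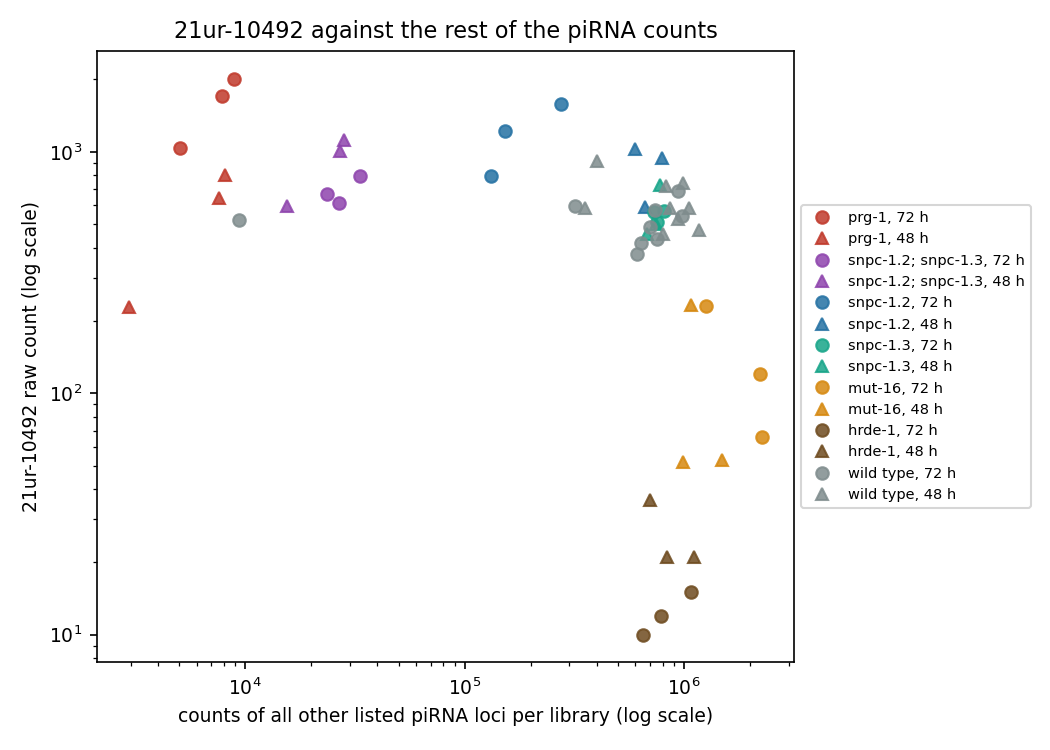
Raw count of 21ur-10492 against the summed counts of all other listed piRNA loci, per library, both on log axes; circles are 72 h and triangles 48 h. The prg-1 and double-mutant libraries sit at the left with counts of 227 to 2011, beside 1 wild-type library of set C, and the hrde-1 libraries sit at the lower right with 10 to 36.

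In the double mutant, which lacks snpc-1.2 and snpc-1.3, 21ur-10492 was kept at or above its wild-type count while most piRNA counts were lost. The counts at 72 h were 670, 796 and 616 in the double mutant, against 488, 541 and 436 in wild type. At 48 h they were 1121, 599 and 1012 in the double mutant, against 527, 458 and 587 in wild type. The groups did not overlap at either age, though the lowest double-mutant library at 48 h was only just above the highest wild-type library.

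The mean was 142.1% of wild type at 72 h and 173.8% at 48 h, while the other piRNA counts together were 3.44% of wild type at 72 h and 2.73% at 48 h. Its share of piRNA counts ran from 2.262% to 2.761% at 72 h and from 3.595% to 3.81% at 48 h. The log2 fold change of 21ur-10492 was 3.31 (SE 0.618, edgeR adjusted p = 1.1e-05) at 72 h and 4.55 (SE 0.653, adjusted p = 6.83e-08) at 48 h. Of all tested loci 47.6% were called in either direction at 72 h and 58.1% at 48 h, and 7.88% and 10.6% were called higher at those ages. Loci placed like 21ur-10492 were called higher more often. Of 512 tested loci antisense to an exon of a protein-coding gene, 44.7% were called higher at 72 h and 62.3% at 48 h. Of 236 others on chromosome II, 45.3% and 61% were. A locus can pass the filter on low counts through its double-mutant reads alone, so these shares are descriptions. The calls of 21ur-10492 rest on the scaling: with equal library sizes the values were 0.51 (adjusted p = 0.441) and 0.80 (adjusted p = 0.212). The effect differed between ages by -1.24 (72 h minus 48 h, SE 0.805, adjusted p = 0.464), which did not pass. Earlier results of these data had already named 21ur-10492 in this mutant, so the values add no independent support.

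In snpc-1.2 animals the locus was higher at 72 h, where the other piRNA counts together were 25.6% of those of wild type of set A. Its counts at 72 h were 1223, 794 and 1576 in snpc-1.2, against 376, 691 and 418 in wild type. At 48 h they were 942, 592 and 1026 in snpc-1.2, against 587, 474 and 745 in wild type. The groups were apart at 72 h and overlapped at 48 h.

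At 72 h the log2 fold change of 21ur-10492 in snpc-1.2 was 1.29 (SE 0.576, edgeR adjusted p = 0.0444), where 66.1% of tested loci were called in either direction. This call did not hold without any 1 of the 6 libraries it compares (1.13 to 1.40, adjusted p = 0.0515 to 0.118), nor with equal library sizes (1.27, adjusted p = 0.0697). It was kept with the sum as the scaling (3.29, edgeR adjusted p = 0.000301), by DESeq2 (1.82, adjusted p = 0.00515) and by limma (3.19, adjusted p = 6.93e-05). In edgeR it was also kept with DESeq2 size factors, without the filter and with the replicate block. At 48 h the log2 fold change was 0.13 (SE 0.567, adjusted p = 0.855), with 43.6% of tested loci called. It was 1.14 (adjusted p = 0.256) when the sum was the scaling and 1.12 (adjusted p = 0.362) by limma on the deposited log2 CPM. The effect differed between ages by 1.16 (72 h minus 48 h, SE 0.804, adjusted p = 0.294), which did not pass. Here too the locus had been named before from the 72 h values.

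The snpc-1.3 libraries held 21ur-10492 near its wild-type count. At 72 h the counts were 513, 563 and 569 in snpc-1.3, against 376, 691 and 418 in wild type of set A. At 48 h they were 501, 457 and 727 in snpc-1.3, against 587, 474 and 745 in wild type. The groups overlapped at both ages.

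The log2 fold change in snpc-1.3 was 0.27 (SE 0.569, edgeR adjusted p = 0.879) at 72 h, where 9.39% of tested loci were called. At 48 h it was 0.93 (SE 0.572, adjusted p = 0.135), where 77.3% were called. Neither value passed the test, and both changed sign under another scaling, to -0.09 at 72 h with DESeq2 size factors and to -0.10 at 48 h with equal library sizes. The difference between ages was -0.65 (SE 0.805, adjusted p = 0.568).

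**Figure D3:**
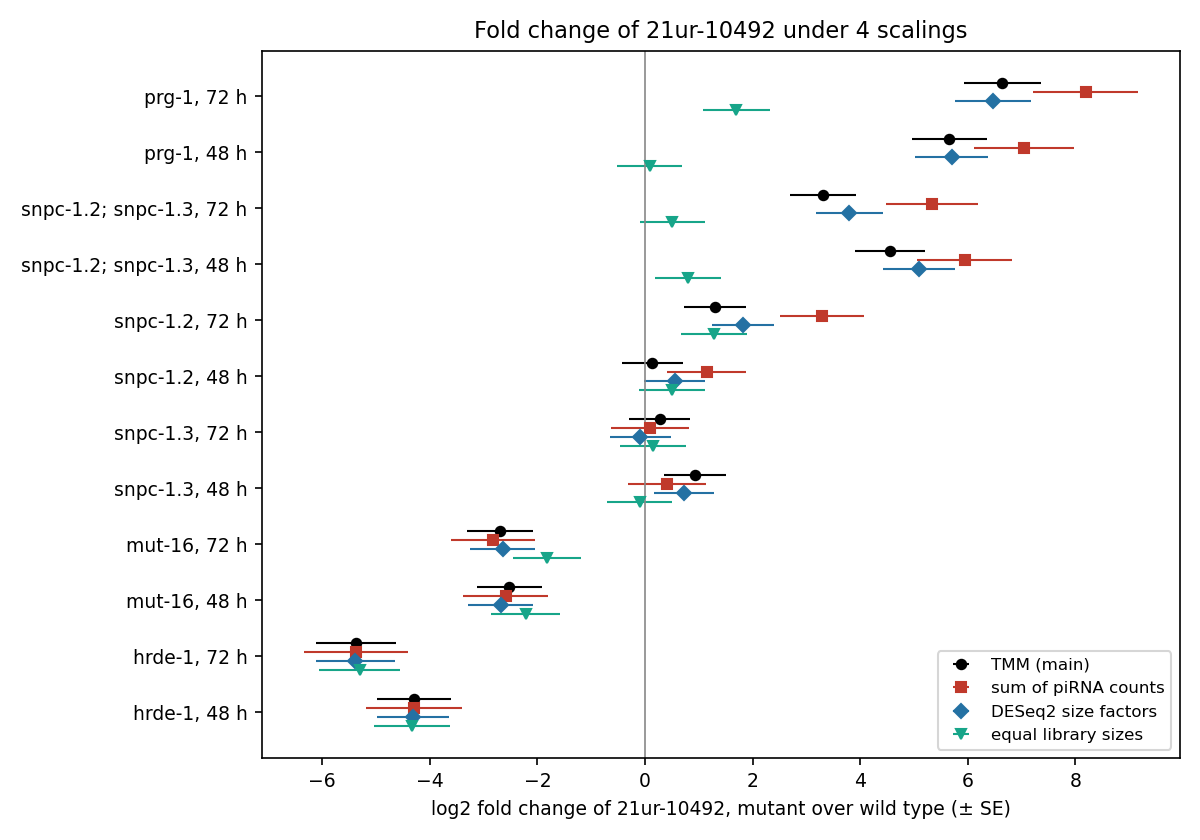
Log2 fold change of 21ur-10492, mutant over wild type of its set and age, under 4 scalings; bars are 1 SE. The hrde-1 values stay between -5.39 and -4.29 in all 4, while the prg-1 values run from 0.09 to 8.19.

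In wild type the raw counts of 21ur-10492 overlapped between the ages, though sequencing depth is unknown. Over the 9 wild-type libraries of 3 sets the count ran from 376 to 691 with a median of 523 at 72 h, and from 458 to 912 with a median of 587 at 48 h. The mean count at 72 h over that at 48 h was 0.932 in set B, 0.822 in set A and 0.766 in set C, and the 2 ages overlapped within each set. The edgeR log2 fold change of 72 h over 48 h across the sets was 1.01 (SE 0.332, adjusted p = 0.00473), in a comparison where 83.8% of tested loci were called.

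That call rested on 1 library. Without wild type replicate 3 of set C at 72 h, in which 21ur-10492 had 523 counts and 52764 CPM, the log2 fold change was 0.32 (adjusted p = 0.332). With equal library sizes it was -0.26. Within sets the CPM ratio of 72 h to 48 h was 1.01 in set B and 1.17 in set A. Set C had CPM values of 776, 1880 and 52764 at 72 h, against 866, 2277 and 1647 at 48 h.

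Between ages the counts of 21ur-10492 differed in opposite directions in prg-1 and hrde-1, which was not tested. In prg-1 the mean count of 21ur-10492 at 72 h was 2.85 times that at 48 h, and the ages did not overlap. In hrde-1 it was 0.474 times, again without overlap, at counts of 10 to 36 per library. The hrde-1 effect over wild type did not pass its edgeR test for an age difference (-1.07 on the log2 scale, SE 0.955). In mut-16, snpc-1.2, snpc-1.3 and the double mutant the raw counts of the 2 ages overlapped.

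Ordered by mean raw count, the first 14 groups ran without a gap between neighbours, from 1585 ± 500.2 in prg-1 at 72 h, 1198 ± 391.6 in snpc-1.2 at 72 h and 910.7 ± 275.4 in the double mutant at 48 h down to 488.3 ± 52.5 in wild type of set B at 72 h. Below them lay mut-16 at 72 h (138.3 ± 83.03) and at 48 h (112.3 ± 103.6), which overlapped. The hrde-1 groups came last, with 26.0 ± 8.66 at 48 h and 12.33 ± 2.517 at 72 h, and each was apart from its neighbour in the order (SD, n = 3 each).

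Ordered by CPM, prg-1 led with 178000 ± 7338 at 72 h and 79940 ± 9175 at 48 h, followed by the double mutant with 37080 ± 1077 at 48 h and 24510 ± 2702 at 72 h. Among these 4 groups no neighbours overlapped. The lowest 4 groups were those of mut-16 and hrde-1 on this scale as well, down to 14.82 ± 0.8128 CPM in hrde-1 at 72 h.

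Inside F15D4.5 the table lists 6 other loci, all on the minus strand and antisense to its exons. All 6 were tested. They were 21ur-10687, in exon 5, and novel_21ur-0390, novel_21ur-0391, novel_21ur-0392, novel_21ur-0393 and novel_21ur-0394, in exons 2, 2, 5, 6 and 7. They were much lower in count than 21ur-10492, and 0390 and 0391 overlap in position. Distances of the nearest listed loci from 21ur-10492 were 126 bases (novel_21ur-0393) and 330 bases (novel_21ur-0394) on one side, and -455 bases (novel_21ur-0392) and -521 bases (21ur-10687) on the other.

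Within set B their mean summed counts were lowest in mut-16 and hrde-1 at both ages, though 1 prg-1 library at 48 h lay within the mut-16 and hrde-1 ranges. At 72 h the sum was 86.33 ± 20.31 in prg-1, 50.33 ± 8.145 in the double mutant, 9.333 ± 4.163 in mut-16 and 5.333 ± 3.786 in hrde-1, against 35.67 ± 6.028 in wild type (mean ± SD of 3 libraries). At 48 h it was 29.67 ± 18.5 in prg-1, 76.33 ± 14.57 in the double mutant, 9.333 ± 4.933 in mut-16 and 10.33 ± 1.528 in hrde-1, against 38.67 ± 11.02 in wild type. In prg-1 the loci differed. Mean counts at 72 h were above wild type for novel_21ur-0390 (40.0 against 6.667), novel_21ur-0391, novel_21ur-0392 and 21ur-10687. They were below it for novel_21ur-0393 (3.0 against 5.333) and novel_21ur-0394 (6.0 against 8.0), which were also below it in the double mutant. At 48 h novel_21ur-0392, novel_21ur-0393 and novel_21ur-0394 were below wild type in prg-1 (6.333, 1.667 and 1.0, against 13.67, 7.0 and 5.333). The sum in mut-16 and in hrde-1 lay below every wild-type library at both ages (exact two-sided permutation p = 0.1, the smallest that 3 libraries against 3 can give).

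By the edgeR test over all loci, 3 of the 6 were lower in hrde-1 at 72 h and 2 at 48 h, beside 1.05% and 0.587% of all tested loci. In mut-16 3 were lower at 72 h and 1 at 48 h, beside 6.81% and 3.77% of all tested loci. The locus novel_21ur-0392 was called lower in all 4 of these comparisons, with counts of 0, 1 and 0 in hrde-1 and 0, 3 and 7 in mut-16, against 10, 11 and 5 in wild type, at 72 h. The other calls, of novel_21ur-0393 and novel_21ur-0394, also rest on low counts. In hrde-1 at 72 h novel_21ur-0393 had 0, 0 and 0 counts, against 3, 6 and 7 in wild type. There novel_21ur-0394 had 0, 0 and 3, against 11, 7 and 6 (edgeR adjusted p = 0.0494). The locus 21ur-10687 passed in none of the hrde-1 and mut-16 comparisons, at counts of 0 to 4 in each library of these groups and their wild type. In the double mutant 4 of the 6 were called higher at 72 h and 5 at 48 h, under TMM scaling. Of all tested loci 7.88% and 10.6% were called higher there.

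**Figure D4:**
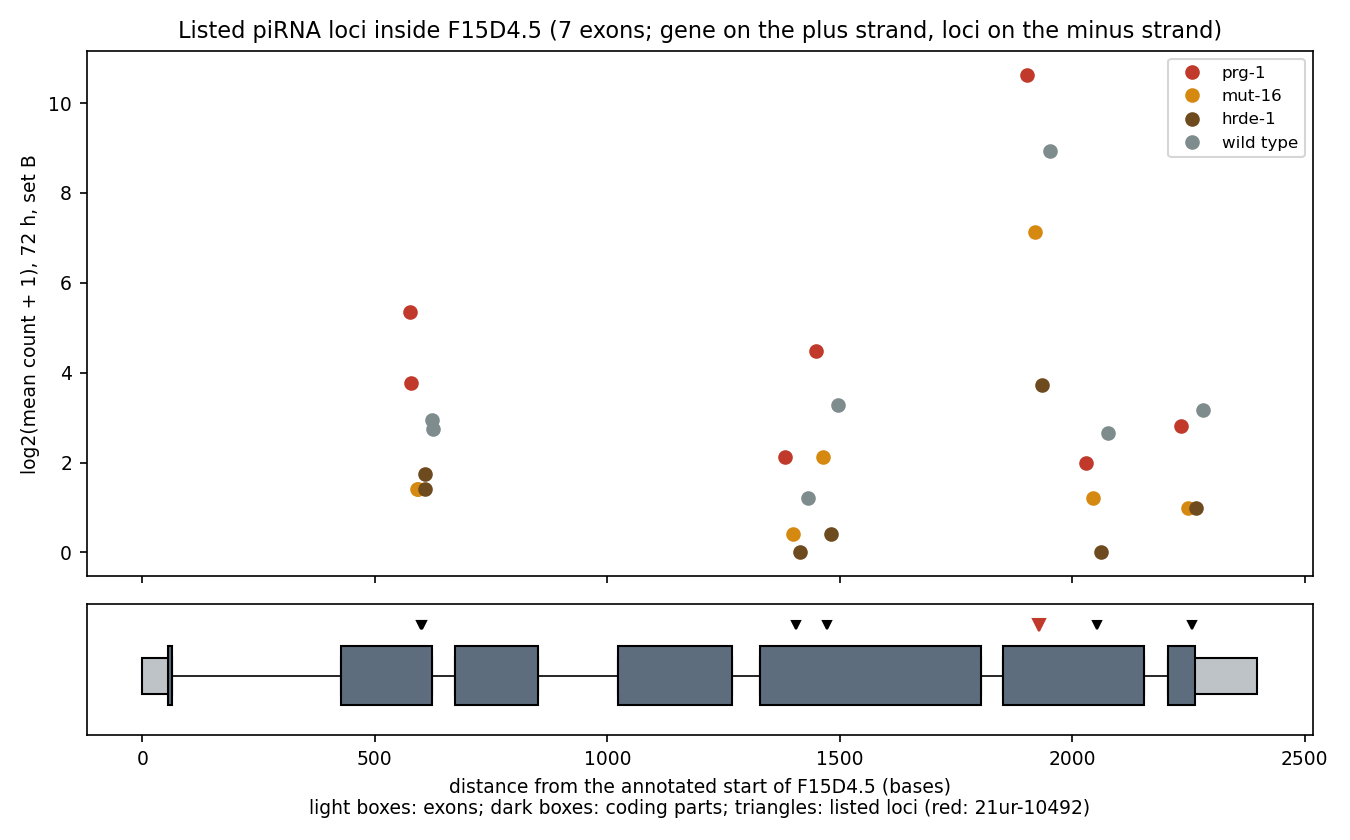
Mean count of each listed locus inside F15D4.5 at 72 h in set B, as log2(mean count + 1), by distance from the start of the gene (top), above the 7 exons of F15D4.5 (bottom; points of a locus are spread sideways for legibility). The locus 21ur-10492 is highest in each genotype shown. For this locus prg-1 is above wild type and hrde-1 lowest, whereas prg-1 is below wild type for novel_21ur-0393 and novel_21ur-0394.

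Loci placed like 21ur-10492 gave the setting for these falls. Of 788 other listed loci antisense to an exon of a protein-coding gene, 512 passed the filter on low counts. In mut-16, 342 of them (66.8%) were called lower at 72 h and 184 (35.9%) at 48 h, beside 6.81% and 3.77% of all tested loci, with median log2 fold changes of -2.91 and -2.45. Over all tested loci but 21ur-10492, the 512 included, the medians were 0.20 and 0.04. In hrde-1, 40 of the 512 (7.81%) were called lower at 72 h and 28 (5.47%) at 48 h, beside 1.05% and 0.587% of all tested loci. Their medians were -0.57 and -0.26, against 0.02 and -0.01 over all tested loci but 21ur-10492. Of 351 other listed loci on chromosome II, which can share members with the first list, 236 passed the filter. In mut-16, 135 of the 236 (57.2%) were called lower at 72 h and 61 (25.8%) at 48 h. In hrde-1, 22 (9.32%) were called lower at 72 h and 14 (5.93%) at 48 h, beside the same shares of all tested loci. Which trait of placement goes with the falls was not tested. A locus can pass the filter through its wild-type counts alone. It can also pass through prg-1 or double-mutant libraries, where a few reads make a high CPM. For example, 21ur-10687 was tested with at most 7 counts in any library. The tested loci of both lists can thus be selected for reads in those mutants. These shares and medians are therefore descriptions and no test of either list.

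Other listed loci that begin with G were also set beside it, a list made after the data were seen. Of 80 such loci 46 were tested. In hrde-1, 3 of the 46 (6.52%) were called lower at 72 h and 1 (2.17%) at 48 h, beside 1.05% and 0.587% of all tested loci. In mut-16, 8 (17.4%) were called lower at 72 h and 6 (13%) at 48 h, beside 6.81% and 3.77%. The median log2 fold changes of the 46 were small, at -0.20 and 0.01 in hrde-1 and -0.06 and -0.14 in mut-16 (72 h and 48 h). The summed counts of the 80 were 283.3 ± 101.9 in prg-1 at 72 h, against 6345 ± 986.1 in wild type (mean ± SD of 3 libraries), so that the 80 together had fewer counts in prg-1 than 21ur-10492 alone. Loci with other first bases kept a smaller part of their wild-type sum. Those sums were 22.33 in prg-1 against 4018 in wild type of set B for A, 22.33 against 6015 for C, and 6920 against 793500 for T.

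The loci that came next in mean count over the prg-1 libraries are given beside 21ur-10492. The locus novel_21ur-0308, on chromosome II and antisense to an exon of F43E2.6, had 87, 176 and 208 counts in prg-1 at 72 h, against 280, 126 and 199 in wild type. In hrde-1 it had 102, 132 and 294 counts at 72 h, and it was not called in hrde-1 (edgeR adjusted p = 0.983) or mut-16 (adjusted p = 0.936) at that age. The locus novel_21ur-0847, on chromosome IV, had 169, 201 and 164 counts in prg-1 at 72 h, against 78, 76 and 55 in wild type. It was called lower in mut-16 at 72 h (adjusted p = 0.000796), with 7, 12 and 18 counts, but not in hrde-1 (adjusted p = 0.858), with 28, 39 and 63. The locus novel_21ur-0849 overlaps novel_21ur-0847 in position and was called like it in both mutants at 72 h.

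The loci whose levels were most like those of 21ur-10492 over the 18 group means were sought on 2 scales. On log2(CPM + 1) the closest were novel_21ur-0144 on chromosome I (Pearson r = 0.976), novel_21ur-1528 on chromosome V, novel_21ur-0621 on chromosome III, novel_21ur-0335 on chromosome II and novel_21ur-1524 on chromosome V (r = 0.974). The points of all loci share their libraries and piRNA totals. On log2(count + 1) the order was novel_21ur-0621 (r = 0.92), novel_21ur-0144, novel_21ur-0335, novel_21ur-0332 and novel_21ur-0336 (r = 0.853).

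The most abundant of these, novel_21ur-0335, had mean counts at 72 h of 133.3 in prg-1, 132.7 in the double mutant, 21.67 in mut-16 and 9.333 in hrde-1, against 89.33 in wild type of set B. At 48 h they were 68.33 in prg-1, 128.3 in the double mutant, 9.333 in mut-16 and 1.667 in hrde-1, against 67.33 in wild type. It was chosen for its likeness over these same group means, so the shared pattern is a description.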

How the data were processed

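Small RNA of whole worms was measured in 54 libraries. The deposited count table gives, per the file headers, raw counts per piRNA locus, and Trimmomatic 0.39, Bowtie 1.1.1, HTSeq and edgeR are named in the submitters' processing notes. Their parameters, the strand setting and the treatment of overlapping loci are not given in the sources used here. A second deposited table holds batch-corrected log2 CPM per the file headers. It gave positions and sequences, and its values entered 1 alternative. Of set B at 72 h, replicate 3 of wild type was resequenced, per the file headers. The tables hold 12 columns that match no sample and were not used, and 12 mutant samples of set C were not analysed here.

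Counts were tested with edgeR 4.0.16 (quasi-likelihood, TMM, filterByExpr with minimum count 10 and minimum total 15; R 4.3.3) in 1 fit of 54 libraries with a mean per set, genotype and age, adjusted by Benjamini-Hochberg over 8512 loci. The design was written for 66 libraries. Log2 fold changes of 21ur-10492 are unshrunk, with SE as their size divided by the square root of F. Its place in the order of loci and the medians over lists use edgeR fold changes shrunk with a prior count of 0.125. CPM is the count scaled to a piRNA sum of 1000000. Totals per library ran from 3167 to 2276260. Alternatives were DESeq2 1.42.0, limma 3.58.1, other scalings, no filter, a replicate block and leaving out each library. Positions equalled the WBcel235 annotation for 11448 of 11451 loci. The fit was tested on simulated data for 1 comparison, hrde-1 over wild type at 48 h. The locus and the lists were chosen with earlier results of these data known. Named loci are 21ur-10492, those inside F15D4.5, its neighbours, the 3 next highest in prg-1 and the 5 most alike on each scale. A search for upstream motifs was planned but needs a genome and was not run.

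All same-numbered pairs correlated above 0.1 in 1 of 15 comparisons, hrde-1 against wild type at 48 h (0.108 to 0.182). Libraries with different numbers were not compared in this way, so these correlations cannot show whether samples were paired. The labels describe no shared animal or day.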

Additional observations from a re-analysis of the deposited data

Results flagged for a closer look

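The CPM of 21ur-10492 in wild type replicate 3 of set C at 72 h was 52764, far above the other 8 wild-type libraries of that age. The gap to the nearest of them took up 0.975 of the whole range of the 9, where 0.493 is the critical value. Its raw count of 523 was the median of the 9 libraries. The piRNA total of that library was 9912. About 1 in 20 such groups is marked by chance. Tests of the age difference in each mutant effect on 21ur-10492 passed in none of 5 mutants (0 calls, edgeR adjusted p from 0.294 to 1, unadjusted p from 0.13 to 0.833).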

How the results depend on the processing

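The hrde-1 falls of 21ur-10492 kept their direction and call under every alternative run (-5.40 to -5.24 at 72 h, -4.33 to -4.28 at 48 h; leaving out single libraries -5.40 to -5.31 and -4.81 to -4.01). With equal library sizes the double mutant gave 0.51 at 72 h and 0.80 at 48 h, snpc-1.2 at 72 h 1.27 and mut-16 at 72 h -1.82, none of them called. That setting also changed the sign of wild type by age (-0.26), of snpc-1.3 at 48 h (-0.10) and of the age differences of snpc-1.3 (0.25) and mut-16 (0.40), and gave 1.70 and 0.0855 for prg-1 at 72 h and 48 h. The sum as scaling gave -2.59 for mut-16 at 48 h, not called, and 8.19 and 7.05 for prg-1. DESeq2 size factors in edgeR, and DESeq2 itself, gave -0.0857 and -0.0853 for snpc-1.3 at 72 h and 6.47 for prg-1 at 72 h. For the mut-16 age difference they gave 0.0391 and 0.0466. limma gave 0.47 for wild type by age, not called (adjusted p = 0.281), and 6.86 and 5.38 for prg-1. Without the filter snpc-1.2 at 48 h was -0.0595 and prg-1 6.97 and 5.43. The cause of these changes was not tested, beyond the scaling itself.

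Leaving out single libraries gave 1.13 to 1.40 for snpc-1.2 at 72 h, which lost its call without any 1 of its 6 libraries, and -0.10 to 0.50 at 48 h. It gave -3.63 to -2.27 for mut-16 at 72 h, -3.76 to -2.11 at 48 h, -1.10 to 1.08 for its age difference, 0.32 to 1.35 for wild type by age, and 6.38 to 6.78 and 5.32 to 6.05 for prg-1. With the replicate block snpc-1.3 at 48 h was 0.95 and passed (adjusted p = 0.0478), and whether its replicate numbers pair the samples is not known. The block changed no other call. The piRNA totals of the prg-1 libraries, 3167 to 10864, limit what can be said of low loci there.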
